A study of Drosophila melanogaster with 6 samples.

Results

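The small heat-shock proteins and stress chaperones described here are 8 genes named by their CG numbers: Hsp22, Hsp23, Hsp26, Hsp27, Hsp67Bc and l(2)efl of the small heat-shock family, Hsp68 of the Hsp70 family, and the J-domain protein gene DnaJ-1. The expression table holds a row for 5 of the 8, Hsp23, Hsp26, Hsp27, Hsp68 and DnaJ-1, among 9073 genes in all. Hsp22, Hsp67Bc and l(2)efl are not analysed here. The embryos were Oregon R, a wild-type stock of Drosophila melanogaster, and each library came from a pool of about 50. One group had received eve+runt dsRNA (double-stranded RNA against even-skipped and runt, each at 1 µg/µl) and the other water, with 3 libraries in each. The stated protocol was the same for both groups: eggs of 0 to 1 h collected at 25 °C, removal of the chorion, drying, injection, ageing under oil at 18 °C, and hand selection at the late blastoderm. The study asks which genes Even-skipped and Runt, transcription factors of the segmentation stripes, control.

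Heat-shock proteins are molecular chaperones. The small ones carry an alpha-crystallin domain, form large oligomers and hold unfolding proteins without using ATP. Proteins of the Hsp70 family refold such clients in cycles of ATP hydrolysis, and J-domain proteins such as DnaJ-1 deliver the clients and stimulate that hydrolysis. Under heat or other protein damage the heat shock factor Hsf binds the promoters of these genes and their transcription rises. Some of them are also transcribed without stress. In flies Hsp26 and Hsp27 RNA is made in the nurse cells of the ovary and passed to the egg, whereas Hsp68 and the Hsp70 genes are known chiefly for their induction by heat.

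The libraries held 23234425 to 49364110 gene reads. Levels are given as normalised read counts, which are reads divided by a scaling factor of the library; log2 fold changes (dsRNA over water) were computed on log2(normalised count + 1). Water replicate 2 stood apart from the other 5 libraries, with a score of 60.6 on the first principal component against −27.7 to 5.61. In that library 14 of 15 maternally supplied RNAs were higher than in both other water libraries, as were 42.6% of all genes, and 12 of 14 zygotic blastoderm genes were lower than in both, as were 42.7% of all genes. These blastoderm genes, such as slam and bnk, were abundant in all 6 libraries, and 6 markers of later tissues together gave 327 to 549 normalised counts after dsRNA and 129 to 675 with water. Most of that sum was elav, a neuronal gene, at 266 to 487 after dsRNA and 87.5 to 614 with water. Of the targets, run stood at 1733 to 1975 normalised counts in the dsRNA libraries and 2220 to 3557 in the water libraries, while eve overlapped, at 2325 to 2922 in the dsRNA and 1699 to 3075 in the water libraries. Neither passed over all genes (limma adjusted p of 0.999 each). The log2 fold change was −0.64 ± 0.18 (SE) for run, with an unadjusted limma p of 0.00921. For eve it was 0.11 ± 0.23 (SE), with an unadjusted limma p of 0.650. Of all genes 2.27% had an unadjusted p under 0.05. Each group is a set of pools and nothing in the labels says on which day each was injected, so the tests weigh only the spread among these pools. An exact permutation test of 3 libraries against 3 cannot give a p below 0.1 (two-sided) and was not used; p-values are from limma, fitted across all genes.

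None of the 5 heat-shock genes changed past the threshold of an adjusted p of 0.05. With the limma-trend test over all genes, 0 of 5 passed, where 0.011% of the 9073 genes did (1 gene), and limma-voom also passed 0 of 5. At an unadjusted p under 0.05 there were 2 of 5, Hsp26 and Hsp23, both higher after dsRNA, beside 2.27% of all genes. Over the 5 genes the log2 fold changes were 3 positive and 2 negative with a median of 0.03, beside a median of −0.002 for all genes. Directions were mixed. Hsp23 and Hsp26 had positive values, Hsp27 and DnaJ-1 negative ones, and Hsp68 lay near 0. In whole embryos fewer cells with a transcript and less of it per cell cannot be told apart.

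**Figure D1:**
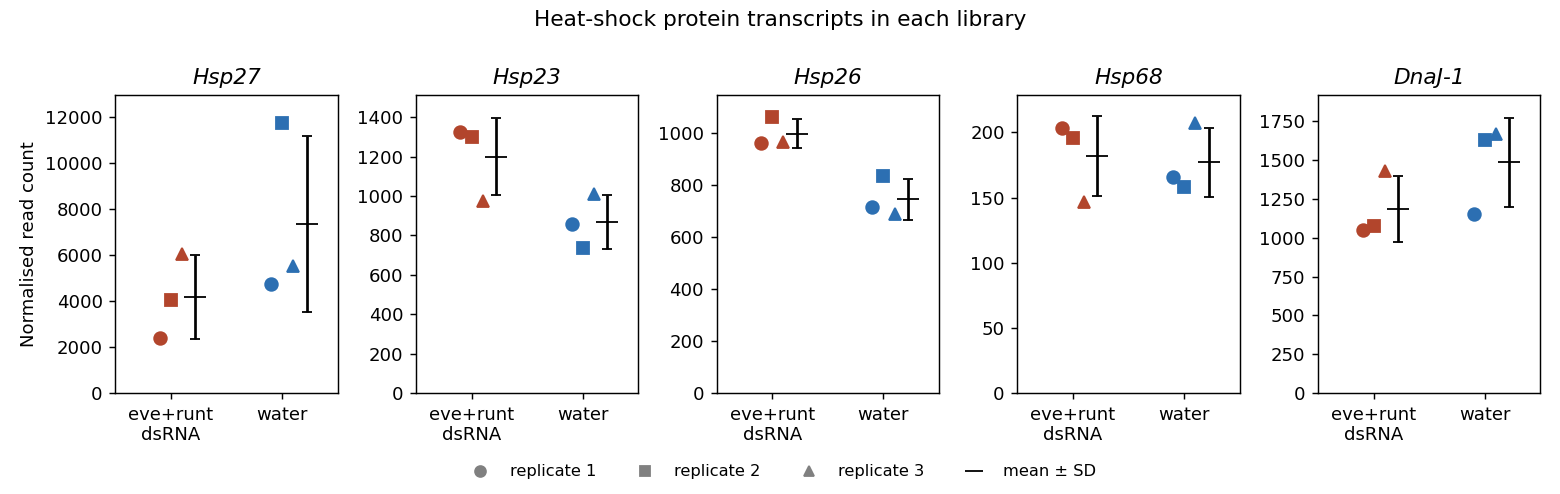
Normalised read counts (vertical axes, from 0) of the 5 genes in each library, with eve+runt dsRNA on the left and water on the right of each panel; marker shapes give the replicate number and bars the mean ± SD of 3 libraries. Hsp26 is the gene whose 3 dsRNA libraries all lie above the 3 water libraries, and Hsp27 shows the widest spread within both groups.

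Hsp26 (CG4183; BDGP6 chromosome arm 3L, 9376418 to 9377427, minus strand, a single-exon gene), a cytoplasmic small heat-shock protein with a known maternal supply, had 963, 1063 and 968 normalised counts in dsRNA replicates 1, 2 and 3. In water replicates 1, 2 and 3 it had 714, 837 and 688. Every dsRNA library was above every water library, which held for 2.99% of all genes, while 3.36% had every dsRNA library below every water library. The means were 998 ± 56.5 after dsRNA and 746 ± 79.2 with water (SD, n = 3 each), 1.34-fold higher after dsRNA. The log2 fold change was 0.42 ± 0.12 (SE) and its 95% confidence interval 0.15 to 0.70. The unadjusted limma p was 0.00872 and the adjusted p 0.999. Within pairs of the same replicate number the ratio of dsRNA to water was 1.35, 1.27 and 1.41, higher in 3 of 3 pairs, which held for 10.7% of all genes. Its 650 to 1413 reads per library put the counting error at the fewest reads at 3.92%, below the 5.67% and 10.6% that separated libraries within the dsRNA and the water group (SD as a percent of the mean).

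Hsp23 (CG4463; BDGP6 3L, 9381882 to 9382765, plus strand, a single exon), another cytoplasmic member of the family, had 1327, 1297 and 973 normalised counts in dsRNA replicates 1, 2 and 3. In the water libraries it had 859, 737 and 1012. The groups overlapped by a single library on each side, since dsRNA replicate 3 lay below water replicate 3. The means were 1199 ± 196 after dsRNA and 869 ± 137 with water (SD, n = 3 each), 1.38-fold higher after dsRNA. On the log2 scale this was 0.46 ± 0.17 (SE), with a 95% confidence interval of 0.05 to 0.87. The unadjusted limma p was 0.0330 and the adjusted p 0.999. Pair ratios were 1.54, 1.76 and 0.962, so the direction held in 2 of 3 pairs. With the replicate number as a block the unadjusted p was 0.0651.

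Hsp27 (CG4466; BDGP6 3L, 9384063 to 9385694, plus strand, a single exon) encodes a small heat-shock protein found largely in the nucleus and, like Hsp26, is supplied by the mother. It had 2387, 4059 and 6065 normalised counts in dsRNA replicates 1, 2 and 3, against 4745, 11774 and 5542 in water replicates 1, 2 and 3. The groups overlapped, with dsRNA replicate 3 above 2 of the water libraries and water replicate 2 far above all others. The means were 4170 ± 1842 after dsRNA and 7354 ± 3849 with water (SD, n = 3 each). The log2 fold change of −0.80 ± 0.44 (SE) had a 95% confidence interval of −1.85 to 0.25. Limma gave an unadjusted p of 0.115 and an adjusted p of 0.999. Its spread within groups, 44.2% and 52.3% of the mean after dsRNA and with water, was the widest of the 5 genes, although 3501 to 9149 reads put the counting error at the fewest reads at 1.69%. Without water replicate 2 the value was −0.40 ± 0.34, and without dsRNA replicate 1 it was −0.45 (log2). An annotated RNA on the other strand, CR43483, overlaps the exon, and its reads cannot be separated here because the use of strand in counting is not given in the sources used here.

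Per length of exon, Hsp27 was the most abundant of the 3 small heat-shock RNAs in 5 of 6 libraries. It averaged 2555 ± 1128 normalised counts per kb after dsRNA and 4506 ± 2359 with water (SD, n = 3 each). Hsp23 averaged 1356 ± 222 per kb after dsRNA and 983 ± 156 with water, and Hsp26 988 ± 56.0 after dsRNA and 739 ± 78.4 with water. Taken over both groups, these levels per kb placed Hsp27 at percentile 90.7, Hsp23 at percentile 72.0 and Hsp26 at percentile 67.1 of the 8972 genes with an annotated exon length. In dsRNA replicate 1 Hsp23 exceeded Hsp27, at 1501 against 1462 per kb. The ratio of Hsp27 to Hsp26 per kb was 1.53, 2.36 and 3.88 in dsRNA replicates 1, 2 and 3, and 4.11, 8.71 and 4.98 in water replicates 1, 2 and 3. This ratio does not depend on how libraries are scaled. Its groups did not overlap, though dsRNA replicate 3 at 3.88 lay close to water replicate 1 at 4.11. How often ratios of other gene pairs separate in this way was not counted. The ratio was chosen after its values were seen and was not tested. The total of the 3 was 3917 to 5775 per kb after dsRNA and 4586 to 8877 with water, water replicate 2 being the highest.

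**Figure D2:**
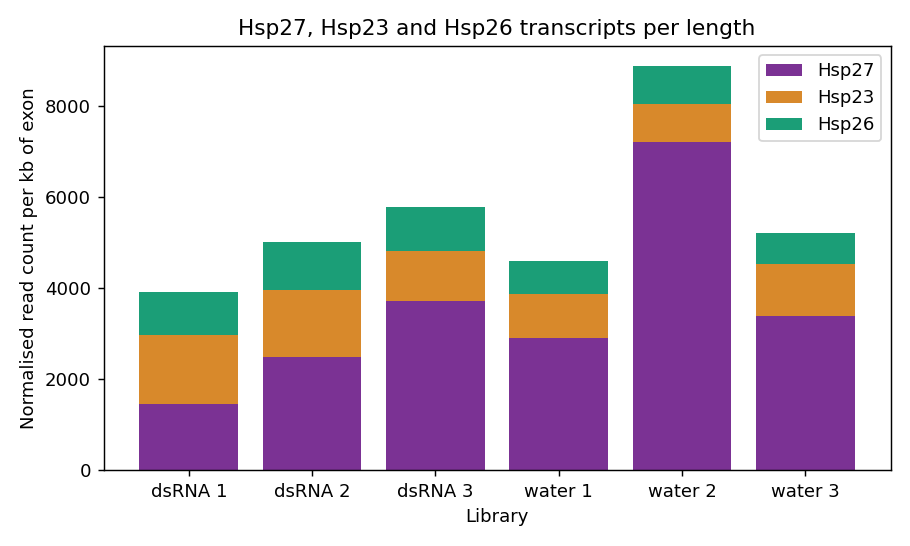
Stacked normalised read counts per kb of exon (vertical axis, from 0) of Hsp27, Hsp23 and Hsp26 in each library, dsRNA libraries on the left and water libraries on the right. Hsp27 makes up 37.3% of the 3 in dsRNA replicate 1 and 81.3% in water replicate 2.

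Hsp68 (CG5436; BDGP6 chromosome arm 3R, 24055080 to 24057310, minus strand, a single exon), a heat-inducible cytosolic protein of the Hsp70 family, was the least abundant of the 5 genes. It had 203, 196 and 147 normalised counts in dsRNA replicates 1, 2 and 3, and 166, 158 and 208 in water replicates 1, 2 and 3. The groups overlapped almost fully. The means were 182 ± 30.7 after dsRNA and 177 ± 26.6 with water (SD, n = 3 each). They differed by 0.03 ± 0.21 on the log2 scale (SE). For this difference limma gave an unadjusted p of 0.876 and an adjusted p of 0.999. The 95% confidence interval of −0.46 to 0.53 covers changes in either direction. The sign turned on leaving out any of dsRNA replicates 1 and 2 or water replicates 1 and 2. Its 105 to 298 reads gave a counting error of 9.76% at the fewest reads, against a spread within groups of 16.9% and 15.0% after dsRNA and with water. On the other strand lncRNA:CR44097 and CG6000 overlap its exon.

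DnaJ-1 (CG10578; BDGP6 3L, 5750029 to 5752189, minus strand, a single exon), a J-domain partner of Hsp70 proteins that is itself induced by heat, had 1049, 1077 and 1429 normalised counts in dsRNA replicates 1, 2 and 3. In the water libraries it had 1156, 1631 and 1672. The groups overlapped, because water replicate 1 lay below dsRNA replicate 3. The means were 1185 ± 211 after dsRNA and 1486 ± 287 with water (SD, n = 3 each), or −0.32 ± 0.19 on the log2 scale (SE; 95% confidence interval −0.77 to 0.13). The unadjusted limma p was 0.134 and the adjusted p 0.999. Pair ratios of dsRNA to water were 0.908, 0.661 and 0.854, lower in 3 of 3 pairs, which held for 14.4% of all genes. With the replicate number as a block the unadjusted p was 0.0448, a level that 3.84% of all genes reached in that fit. Without water replicate 1 the log2 fold change was −0.49. Per kb DnaJ-1 stood at 548 ± 97.9 after dsRNA and 688 ± 133 with water, and Hsp68 at 81.5 ± 13.8 after dsRNA and 79.4 ± 11.9 with water (SD, n = 3 each), which is percentile 62.2 for DnaJ-1 and 36.4 for Hsp68 over both groups.

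The order of the libraries in each gene was set beside that of the maternal RNAs and of the zygotic blastoderm genes. Each gene's log2 level was centred on its own mean over the 6 libraries, and lists are given by the median of their genes. On this scale 15 maternal RNAs, among them bcd, CycB, smg and gnu, lay at −0.22, −0.01 and 0.07 in dsRNA replicates 1, 2 and 3. In water replicates 1, 2 and 3 they lay at −0.10, 0.39 and −0.06. Hsp27 lay at −1.10, −0.34 and 0.24 in the dsRNA libraries and at −0.11, 1.20 and 0.11 in the water libraries. Its highest, next highest and lowest libraries (water replicate 2, dsRNA replicate 3 and dsRNA replicate 1) were those of the maternal median, over a wider range. Water replicate 2 was the highest library for 12 of the 15 maternal RNAs, and also for 2901 of all 9073 genes. DnaJ-1 was likewise lowest in dsRNA replicate 1, and water replicates 2 and 3 stood highest for it, at 0.31 and 0.35. The summed level of the 15 maternal RNAs was 132352 to 174347 normalised counts after dsRNA and 154116 to 229507 with water. Most of that sum was CycB and smg. CycB had 50146 to 71092 after dsRNA and 63677 to 99005 with water, and smg had 40561 to 58218 after dsRNA and 47186 to 75576 with water. None of the 15 maternal RNAs was at 0, and their part in the values of Hsp27 was not tested.

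The other small heat-shock genes were ordered differently. The median of 14 zygotic blastoderm genes lay at 0.38, 0.19 and −0.16 in dsRNA replicates 1, 2 and 3 and at 0.01, −0.45 and 0.05 in water replicates 1, 2 and 3. Hsp23 lay at 0.39, 0.36 and −0.06 in the dsRNA libraries and at −0.24, −0.46 and 0.00 in the water libraries. Both were highest in dsRNA replicate 1 and lowest in water replicate 2. Replicate 1 of the dsRNA group was the highest library for 12 of the 14 zygotic genes and for 1449 of all 9073 genes. The summed level of the 14 zygotic genes was 248434 to 387360 normalised counts after dsRNA and 220172 to 298122 with water. The largest part of that sum was slam, at 118867 to 197410 after dsRNA and 110289 to 150198 with water. The part of the 14 zygotic genes in the value of Hsp23 was not tested. Hsp26, in spite of its known maternal supply, lay at 0.16, 0.30 and 0.17 after dsRNA and at −0.27, −0.04 and −0.32 with water, and thus had the order of neither median. Its libraries stood in the order of nullo, 1 of the 14 zygotic genes. Among 6725 genes searched over these same libraries, nullo had the highest Pearson's r with Hsp26, so this match was not an independent comparison. Of the 14 zygotic genes 2, nullo and tsg, likewise had every dsRNA library above every water library, beside 2.99% of all genes. In water replicate 2 Hsp26 was 0.23 to 0.28 above the other water libraries on this log2 scale. That library also exceeded both other water libraries for 14 of 15 maternal RNAs, beside 42.6% of all genes. Of the zygotic genes 2 of 14, again nullo and tsg, were higher there, and 12 were lower than in both. Stored and newly made RNA of a gene cannot be told apart in these counts, and every library came from injected embryos, so that a rise shared by both groups cannot be told apart from the level of the stage.

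**Figure D3:**
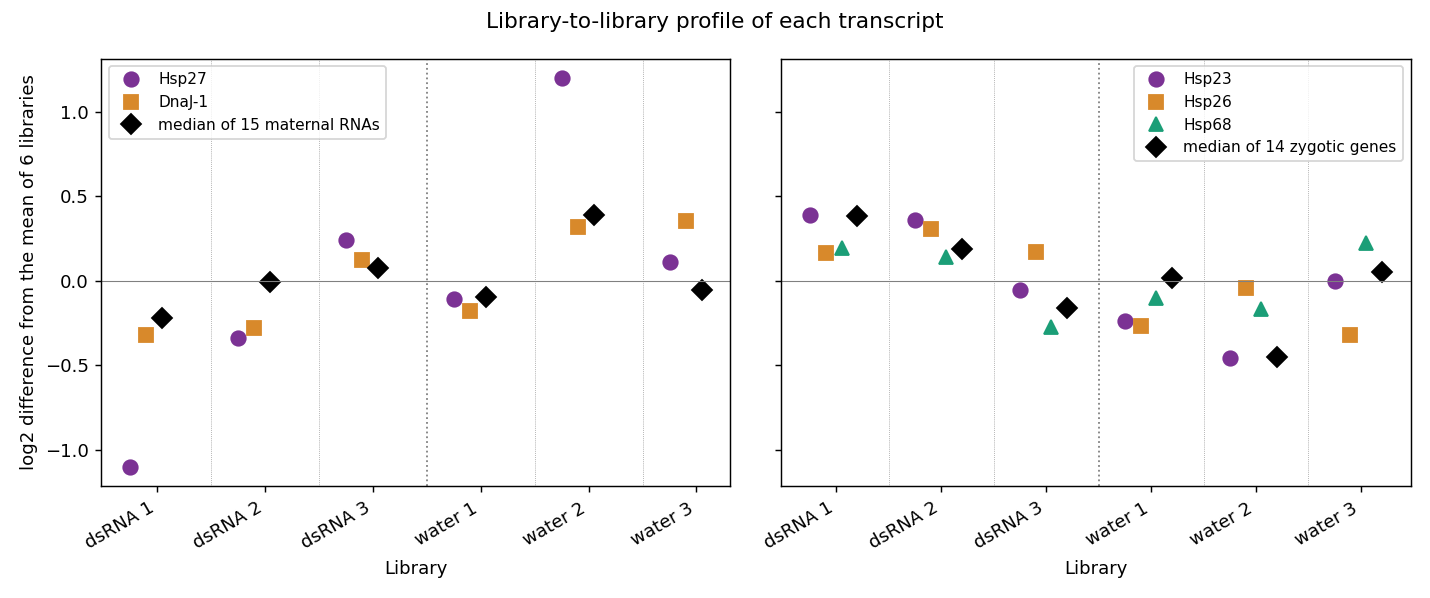
Log2 level in each library, centred on the mean over the 6 libraries (vertical axis), for Hsp27 and DnaJ-1 beside the median of 15 maternal RNAs (left), and for Hsp23, Hsp26 and Hsp68 beside the median of 14 zygotic blastoderm genes (right). Hsp27 spans −1.10 in dsRNA replicate 1 to 1.20 in water replicate 2, while Hsp26 is above 0 in the 3 dsRNA libraries and below 0 in the 3 water libraries.

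The heat-inducible Hsp70 genes were scarce in both groups. Of 6 heat-inducible Hsp70 genes, 4 had a row, and together they had 19.2 to 27.9 normalised counts per library after dsRNA and 11.6 to 112 with water. Hsp70Bb had 22, 6 and 8 reads in dsRNA replicates 1, 2 and 3, and 23, 6 and 75 reads in water replicates 1, 2 and 3. Hsp70Aa, Hsp70Bbb and Hsp70Bc had 0 to 16 reads per library. All 4 of these Hsp70 genes were highest in water replicate 3. So were 2 of the 5 genes described here, Hsp68 and DnaJ-1, and Hsp83, Hop, Trap1 and Hsf among the other chaperones. With the 4 Hsp70 genes this made 8 of the 24 other chaperones with a row, against 21.5% of all genes. Another 7 of the 24 were highest in water replicate 2, as were 2901 of all 9073 genes. These counts were looked at after the values were seen, and some rest on near ties. Hsp68 had 208 normalised counts in water replicate 3 and 203 in dsRNA replicate 1. DnaJ-1 had 1672 in water replicate 3 and 1631 in water replicate 2, and Hsp70Aa had 12.9 in water replicate 3 and 12.1 in water replicate 1. Hsp23, Hsp26 and Hsp27 were highest in other libraries. The Hsp70 copies are nearly identical and reads with several alignments were counted to no gene, so these values are uncertain and may be too low. Starvin (stv), a BAG-domain partner of Hsp70, had 9.04 ± 3.18 normalised counts after dsRNA and 10.5 ± 2.06 with water (SD, n = 3 each).

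Several constitutive chaperones were far more abundant per length than Hsp68 and the Hsp70 genes. Hsc70-4, the main cytosolic Hsp70 protein of unstressed cells, stood at 75036 normalised counts per kb after dsRNA and 73867 with water. Hsc70-3, the Hsp70 protein of the endoplasmic reticulum, stood at 5413 per kb after dsRNA and 6139 with water, and the Hsp90 gene Hsp83 at 3251 after dsRNA and 3975 with water. The other small heat-shock genes with a row spanned a wide range of levels. CG14207, which carries the alpha-crystallin domain, stood at 3105 per kb after dsRNA and 3081 with water, and Hsp67Ba, a neighbour in the 67B cluster, at 35.2 after dsRNA and 27.4 with water. By this measure CG14207 was above Hsp23 and Hsp26 in both groups.

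Across the 24 other chaperone genes with a row, 0 passed the limma-trend test over all genes in either direction, 0 passed with limma-voom, and 0 had an unadjusted limma-trend p under 0.05. Of all genes 0.011% passed limma-trend and 2.27% had such an unadjusted p, so these counts do not set the 24 apart. Of the 24 genes 9 had positive and 15 negative log2 fold changes, with a median of −0.17 beside −0.002 for all genes. Leaving out water replicates 1, 2 and 3 in turn gave a median of −0.10, −0.07 and −0.08, and leaving out dsRNA replicate 2 gave −0.09. By class, 4 of 6 J-protein and BAG genes and 2 of 2 other small heat-shock genes were positive. Negative values were found for 3 of 4 Hsp70 cognates, 3 of 4 heat-inducible Hsp70 genes and Hsf. Of the 7 genes of the Hsp90 and Hsp60 system 6 were negative, beside 4584 of all 9073 genes. Hsp83 had 9622 ± 1614 normalised counts after dsRNA and 11767 ± 1833 with water (SD, n = 3 each; log2 −0.29 ± 0.15, SE). Cdc37, a kinase-specific partner of Hsp90, was the exception at 4401 ± 321 after dsRNA and 3948 ± 24.0 with water (SD, n = 3 each; log2 0.15 ± 0.07, SE). Its unadjusted limma p was 0.0705. It was the only one of the 24 whose groups did not overlap, a share near that of all genes (2.99% with dsRNA higher and 3.36% with dsRNA lower).

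Among the cognates and J proteins, Hsc70-4 had a log2 fold change of 0.02 ± 0.03 (SE), mrj of 0.00 ± 0.06 and Csp, the cysteine string protein of synaptic vesicles, of 0.04 ± 0.06. DnaJ-H had 757 ± 256 normalised counts after dsRNA and 1093 ± 453 with water (SD, n = 3 each; log2 −0.51 ± 0.35, SE), with 1616 in water replicate 2. The mitochondrial cognate Hsc70-5 stood at 500 ± 119 after dsRNA and 639 ± 131 with water (log2 −0.36 ± 0.23). Hsf, the factor that drives the heat-shock response, stood at 3013 ± 221 after dsRNA and 3421 ± 311 with water (log2 −0.18 ± 0.09). The unadjusted limma p was 0.0955. Its own RNA level is not a measure of its activity, which is controlled at the protein.

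**Figure D4:**
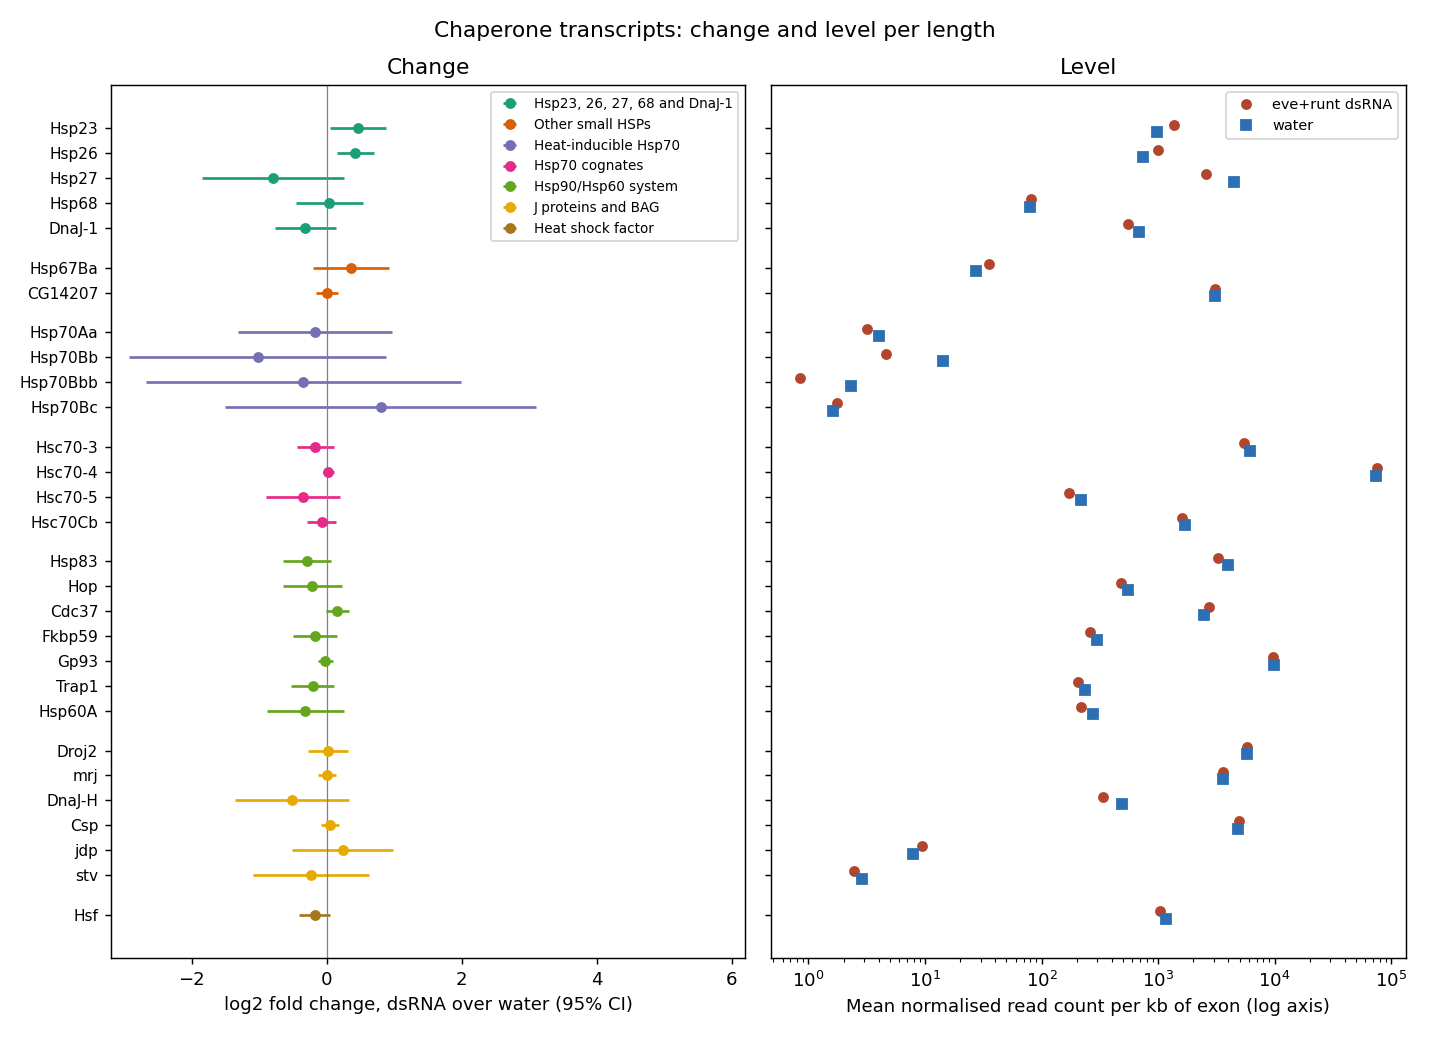
Left, log2 fold change of dsRNA over water with its 95% confidence interval for the 5 genes and the 24 other chaperone genes, coloured by class; right, mean normalised read count per kb of exon (log axis) in dsRNA (circles) and water (squares) libraries. Intervals are widest for the Hsp70 genes with few reads, and Hsc70-4 lies highest on the level axis.

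The genes whose log2 levels followed each heat-shock gene most closely over the 6 libraries were found by Pearson's r among 6725 genes with a mean of at least 50 normalised counts. These values describe a likeness between 6 points that share their libraries and depth. For Hsp27 the nearest were Plekhm1, btz and Lsd-2 (r = 0.999 each), and 996 genes reached an r of 0.9. For Hsp26 they were nullo of the zygotic list (r = 0.989), CG2225 (r = 0.987) and Tpi (r = 0.969), with 27 genes at 0.9 or more. For Hsp23 they were jing (r = 0.996), Ir68a (r = 0.981) and the cell-death activator rpr (r = 0.978), with 108 genes at that level. For DnaJ-1 the nearest was another chaperone gene, Hsc70-5 (r = 0.994), followed by Nup188 (r = 0.985) and CG5199 (r = 0.983), with 237 genes. For Hsp68 they were Polr2F (r = 0.980), CG2021 (r = 0.975) and y (r = 0.969), with 30 genes.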

How the data were processed

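The members and lists were chosen with earlier results of these data known. Per the submitters' processing notes, TopHat2 version 2.0.9, Bowtie2, HTSeq, DESeq and the build dm3 were used; the annotation release is not stated. Per the file's values, the deposited signal per gene is a normalised read count with 1 added by the authors: in every library 100% of values minus 1 were whole multiples of a step, within 0.01 read. Rows that name no gene held 12.4% to 14.8% (several alignments), 0.72% to 0.75% (ambiguous) and 4.32% to 4.91% (no feature) of reads and were left out. There were 0 columns of other samples.

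Log2 of the deposited value was tested with limma 3.58.1 (trend, robust) in R 4.3.3 over 9073 genes, with Benjamini-Hochberg adjustment and a threshold of 0.05. The method was tested on simulated counts in which every gene had the same set variability and no library stood apart. These data differ in both respects, so that test does not carry over to genes such as Hsp27. Symbols came from a RefSeq gene table (Release 6 plus ISO1 MT; 8986 of 9073 matched), and positions and exon lengths from BDGP6, which is not the authors' build; no coordinate was converted. Named genes were the members, the listed chaperone and stress genes, the 3 genes nearest each member by Pearson's r, and eve and run; the maternal and zygotic lists served as stage markers. Pairs within a group differed by a chi-square per degree of freedom of 16.5 to 87.7, so no library was a copy. Replicate numbers are shared between groups with no stated day. Deviations from group means correlated at 0.243, 0.367 and 0.224 for same-numbered libraries across genes, each over 0.1. Differently numbered libraries gave −0.383 to 0.11, so that dsRNA replicate 1 with water replicate 3, at 0.11, was also over 0.1. Deviations sum to 0 within each group, so these values are not independent. The numbers were treated as possible pairs, as a hint from the data. Pair ratios and fits with the replicate block are given for this reason, while the main fit had no block. Alternatives were scaling, pseudocount, a minimum mean, limma-voom, the replicate block and leaving out each library.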

Additional observations from a re-analysis of the deposited data

How the results depend on the processing

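The directions of Hsp23, Hsp26, Hsp27 and DnaJ-1 held under all 12 alternatives run, and none of the 5 genes passed over all genes under any of them (adjusted p 0.735 or more). On leaving out each library in turn the log2 fold change ranged from 0.35 to 0.61 for Hsp23, 0.37 to 0.51 for Hsp26, −1.12 to −0.40 for Hsp27, −0.053 to 0.18 for Hsp68 and −0.49 to −0.23 for DnaJ-1. Hsp68 turned negative without dsRNA replicate 1 (−0.053) or 2 (−0.027) and without water replicate 1 (−0.0098) or 2 (−0.042). The unadjusted limma p stayed between 0.00188 and 0.0444 for Hsp26 in 12 of 12 alternatives and reached 0.108 for Hsp23, under 0.05 in 7 of 12. The count of genes past the threshold, 1 of 9073, was 0 with the replicate block and 0 to 4 on leaving out each library, with 4 without water replicate 2. With the block the unadjusted limma p was 0.00644 for Hsp26, 0.0618 for Hsp27 and 0.887 for Hsp68. The adjusted p was 0.898 or more for all 5 genes. The block changed no call on a heat-shock or chaperone gene. The median of the 24 other chaperones, −0.17, was −0.14 with upper-quartile scaling, −0.12 with a minimum mean of 10, and −0.185 to −0.070 on leaving out each library. TMM and upper-quartile scaling moved the median of all genes by 0.02 and 0.03. The planned edgeR test was not run; limma-voom was run on the reads obtained by dividing out the step. Few reads limit the precision of Hsp67Ba, jdp, stv and the Hsp70 genes. Causes of these shifts were not tested.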

Other observations

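Stress genes outside the chaperones were also read from a list. Of 9 measured genes, 0 passed the limma-trend test over all genes and 0 passed higher or lower by limma-voom; 4 had positive and 5 negative log2 fold changes, with a median of −0.03. Xbp1, the transcription factor of the unfolded-protein response of the endoplasmic reticulum, had 748, 861 and 924 normalised counts in dsRNA replicates 1, 2 and 3, and 1007, 1169 and 1077 in water replicates 1, 2 and 3. Every dsRNA library was below every water library, as for 3.36% of all genes, with a log2 fold change of −0.36 ± 0.12 (SE). It was the 1 of 9 with an unadjusted limma p under 0.05, which was 0.0195; its adjusted p was 0.999. Of all genes 2.27% had an unadjusted p under 0.05 and 0.011% passed after adjustment. The JNK phosphatase gene puc stood at 871 ± 182 after dsRNA and 1067 ± 385 with water (SD, n = 3 each), with 1504 in water replicate 2. The translational repressor gene Thor stood at 504 ± 43.2 after dsRNA and 516 ± 56.9 with water, and Gadd45 at 95.4 ± 16.0 after dsRNA and 83.3 ± 9.16 with water. GstD1, an oxidative-stress gene, and upd3, a cytokine gene of wounding, were near the lower end of the table, with GstD1 at 6.83 ± 1.44 after dsRNA and 4.86 ± 3.52 with water, and upd3 at 4.03 ± 3.14 after dsRNA and 1.52 ± 0.67 with water.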
